A study of Mus musculus with 24 samples.

Results

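The genes of a heat shock chaperone set were followed in hepatocytes isolated from young and old mice fed a normal diet (ND) or a high-fat diet (HFD). They were the rows of the deposited count table named Hsf1, Hspa1a, Hspa1b, Hspa8, Hsph1, Dnajb1, Dnaja1, Hsp90aa1, Hspe1 and Hspd1, which are 10 of 55421 genes in that table. Of these, 9 had enough counts to be tested, among 13583 tested genes, and Hspa1a did not. Per the labels all 24 mice were male, with 6 mice in every one of 4 groups (young or old, ND or HFD). Young mice were C57BL/6N aged 6 months and old mice were C57BL/6J aged 24 months, so an effect of age and one of substrain cannot be told apart here. The study's text gives other ages, C57BL/6 without a substrain and another normal diet, and the labels are followed. HFD was the 58y1 diet with 60% of energy from fat, ND was a Teklad global chow with 18% protein, and either was fed freely for 9 weeks. All mice were euthanised with CO2, the liver was perfused in 2 steps to release the hepatocytes, and the purified cells were frozen before RNA was extracted and polyA RNA sequenced. Each group had 3 mice in each of 2 batches, which the labels do not describe further, except old ND with 2 in batch 1 and 4 in batch 2.

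Heat shock proteins are chaperones that bind unfolded or newly made proteins. HSF1 is the transcription factor that drives their genes after heat or other protein damage, by binding heat shock elements, which are inverted repeats of the letters GAA. HSP70 proteins (Hspa1a and Hspa1b, stress-inducible, and Hspa8, made constitutively) hold client proteins with the help of J-domain proteins (Dnajb1 and Dnaja1), which stimulate their ATPase, and of HSP110 (Hsph1), which exchanges their nucleotide. HSP90 (Hsp90aa1 is its inducible cytosolic form) matures receptors and kinases, and HSP60 (Hspd1) with its lid HSP10 (Hspe1) forms the folding chamber of the mitochondrial matrix. In liver these systems serve a cell with very high protein synthesis and oxidative metabolism.

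Young ND libraries held 15134973 to 22185069 counts and young HFD libraries 15458168 to 17807883. Old ND libraries held 13692834 to 17676870 counts and old HFD libraries 9200332 to 13517632, so every old HFD library was smaller than every other. All 9 hepatocyte markers were counted in every mouse, and Alb, which encodes albumin, was at 29008 to 128230 CPM (counts scaled to a common library size). Immune cell markers were present at lower levels and moved with the groups, as given beside the age comparison. Levels below are CPM scaled by TMM, a factor that corrects library composition, and serve to compare mice within a gene. FPKM values, which are also per gene length, serve to compare genes, with a limit given beside them. In bulk RNA, fewer cells of a type and less RNA per cell cannot be told apart.

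Hspa1b and Hspa1a are near-identical genes that lie 9951 bases apart on chromosome 17 (GRCm38; Hspa1b chr17:34956436-34959238 and Hspa1a chr17:34969190-34972156, both on the minus strand). Their promoters are shown first because Hspa1b was the member called in each age comparison, and because the copies cannot be separated over much of their sequence. The stretch from 130 to 51 bases before the RefSeq start site (GRCm38, minus strand, shown 5′ to 3′) carries a pair of inverted heat shock units, in capitals.
Hspa1b, chr17:34959289-34959368: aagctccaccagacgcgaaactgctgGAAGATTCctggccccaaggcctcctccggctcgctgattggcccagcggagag
Hspa1a, chr17:34972207-34972286: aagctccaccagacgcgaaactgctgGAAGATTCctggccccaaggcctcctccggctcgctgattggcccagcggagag
All 80 letters were the same in both copies, and none of them lies in an exon of the GENCODE annotation. In the transcripts, 49.9% of the 100-base windows of Hspa1b were also found in Hspa1a, so a read from such a window could come from either copy.

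Of the other members searched, those with a match are shown for the sites alone, 30 bases each, again with the matched letters in capitals.
Hsph1, chr5:149636351-149636380, minus strand: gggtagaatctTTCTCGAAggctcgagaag
Hsph1, chr5:149636287-149636316, minus strand: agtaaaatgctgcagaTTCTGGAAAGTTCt
Dnaja1, chr4:40722333-40722362, plus strand: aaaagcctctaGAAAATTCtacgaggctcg
Hspe1, chr1:55088053-55088082, plus strand: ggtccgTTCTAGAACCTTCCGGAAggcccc
In the GENCODE annotation 26 of the 30 bases of the first Hsph1 site and all 30 of the others are exonic. The second Hsph1 site lies after the RefSeq start site, and the Hspe1 site lies before the start of Hspe1 but within an exon of Hspd1. The Hspe1 site held 3 overlapping pairs, starting 89, 84 and 79 bases before its start site. Hspd1 runs in the opposite direction from the same region, and the same site, read on the other strand, held its 3 pairs starting 144, 139 and 134 bases before the second of its RefSeq start sites. The motif searched was GAANNTTC or TTCNNGAA, where N is any base; each form reads the same on both strands and the forms may overlap. It was found in 15.1% of the 32851 RefSeq windows of 250 bases before to 50 bases after a start site, and 3 alternating units, as at the second Hsph1 site and at the Hspe1 site, in 0.603% of them. Dnajb1 had no match in either of its windows, and Dnaja1 had one in 1 of its 3 windows. Hsf1, Hspa8 and Hsp90aa1 were not matched to a RefSeq window and were not searched. These matches are a description of the letters only. The other members lie on chromosome 15 (Hsf1, chr15:76477422-76501913), chromosome 9 (Hspa8, chr9:40800984-40810087), chromosome 8 (Dnajb1, chr8:83608193-83612653) and chromosome 12 (Hsp90aa1, chr12:110690605-110702728), and Hspd1 spans chr1:55077835-55088243.

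**Figure D1:**
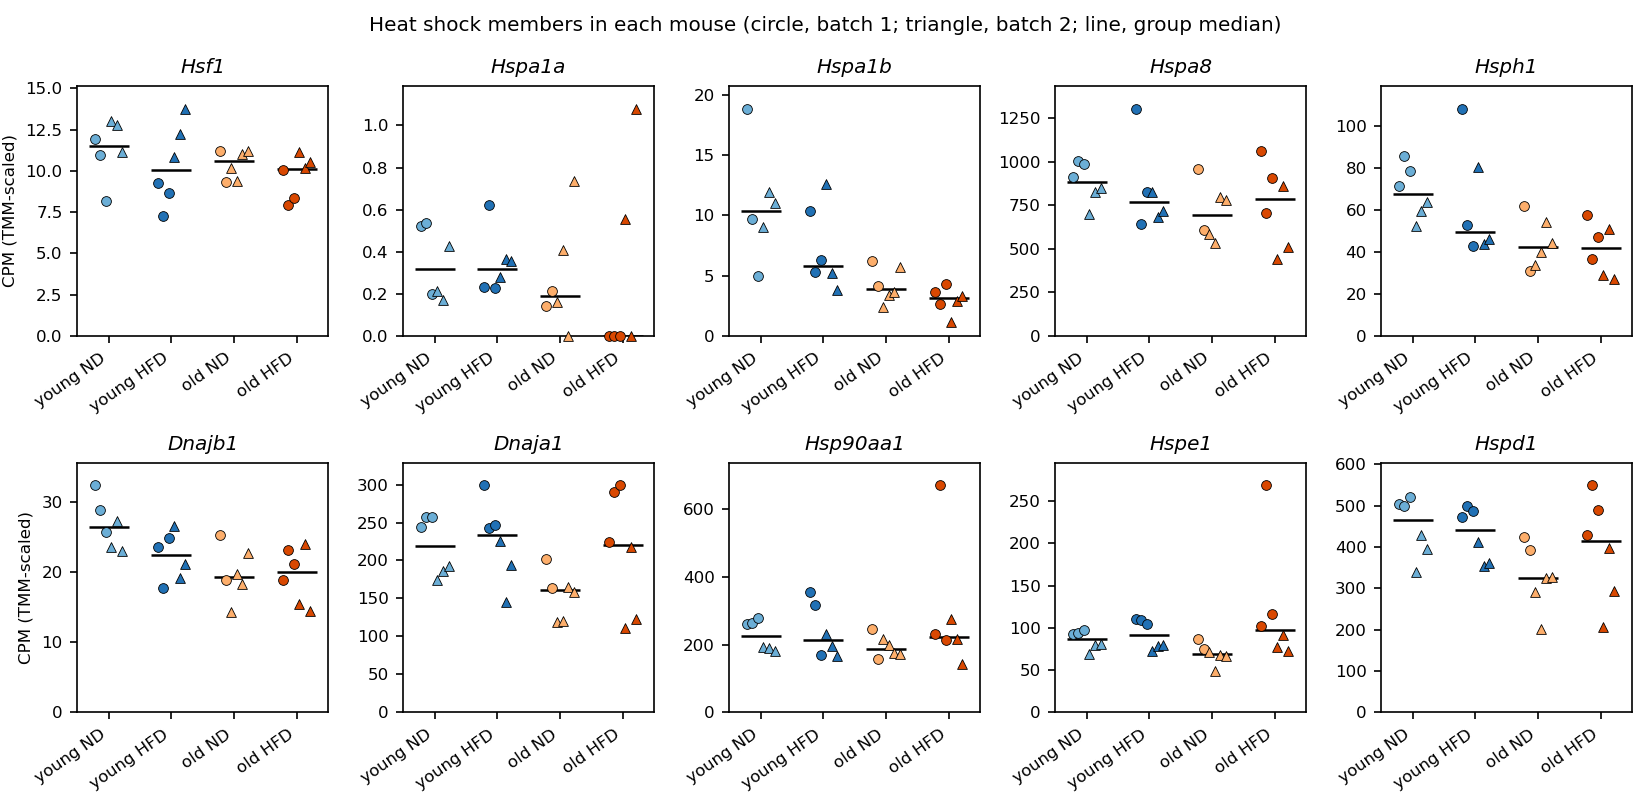
CPM (linear axis from 0, scaled by TMM) of the 10 heat shock members in each of the 24 mice, by group, with circles for batch 1, triangles for batch 2 and a line at the group median. Hspa1b was at 1.19 to 4.35 CPM in old HFD, below every young ND mouse, and 1 old HFD mouse stood high in Hsp90aa1 (670.7 CPM) and Hspe1 (268.9 CPM).

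Per gene length the members spanned a wide range. In young ND the median was 105 FPKM for Hspa8, 43.5 for Hspd1 and 34.6 for Hspe1. It was 19.4 for Hsp90aa1, 14.5 for Dnaja1 and 7.07 for Dnajb1. Constitutive HSP70 and the mitochondrial chamber thus led, and the cytosolic helpers followed. Hspa1b was at a median of 5.12 FPKM, Hsph1 at 3.09, Hsf1 at 0.485 and Hspa1a at 0.144. Among neighbours in this order, the young ND ranges of Hspd1 (39.7 to 49.1 FPKM) and Hspe1 (29.0 to 41.5 FPKM) overlapped, as did those of Dnajb1 (6.23 to 8.23) with Hspa1b (2.28 to 8.28) and of Hspa1b with Hsph1 (2.50 to 3.64). Those of Hspa8 (87.3 to 116) and Hspd1 did not, by FPKM. Per exonic base the counts ordered Hspa1b and Hsph1 the other way. Their young ND medians were 10.4 CPM over 2803 exonic bases for Hspa1b and 67.6 CPM over 7266 for Hsph1. The order above is thus that of the batch-adjusted FPKM only, and the reason for the difference was not tested. Several of these levels rest on sequence that other genes share. Of the 100-base windows of the transcripts, 63.4% for Hspa8, 47.5% for Hsp90aa1, 26.9% for Hspd1, 24.0% for Dnaja1 and 22.4% for Hspe1 were also found in another annotated gene. The gene sharing most with Hspa8 was Gm15459, and with Hsp90aa1 Gm12346. Hsph1, Dnajb1 and Hsf1 had no such window.

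Hspa1a, the other inducible copy, had 0 to 15 counts in a library. Of the 100-base windows of its transcript 56.5% were also found in another gene, and 564 of its exonic bases overlap Gm20481 on the opposite strand, so its count may not hold all of its reads. Young ND mice had 0.172 to 0.537 CPM and young HFD mice 0.226 to 0.622 CPM. Old ND mice had 0 to 0.735 CPM and old HFD mice 0 to 1.08 CPM. No count was found in 5 libraries, 1 of old ND and 4 of old HFD, where a count of 0 allows up to 0.214 to 0.322 CPM (3 counts, covering counting error only). None of the 12 young mice was at 0 counts, but young mice as low as 0.172 CPM lie within what a count of 0 allows, so these old mice cannot be placed below them. No test was made of Hspa1a alone, since it did not pass the count filter.

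The first question was how age changed these genes on a normal diet, and here the inducible HSP70 gene Hspa1b was lower in old mice while the other members showed smaller differences. In young ND it was at 4.97 CPM at the lowest, 10.4 at the median and 18.9 at the highest. In old ND these values were 2.39, 3.90 and 6.21 CPM. The groups overlapped, with 4 of 6 old ND mice below all young ND mice and the lowest young ND mouse, replicate 3, at the level of old ND. Hspa1b fell by 1.34 on the log2 scale (SE 0.32, edgeR adjusted p = 0.0114), to 0.389 times the young ND mean. It was the only one of the 9 tested members called, 1 of 9 beside 8.50% of all tested genes in this comparison. With the counts of both inducible copies summed the change was -1.30 (SE 0.31, adjusted p = 0.0105).

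Around it, each of the other 8 tested members had a negative estimate in old ND against young ND without passing the test. Hsph1, the HSP110 exchange factor, was at 52.5, 67.6 and 85.7 CPM (lowest, median, highest) in young ND and at 31.1, 42.2 and 62.0 CPM in old ND. Dnajb1, the J-domain partner of inducible HSP70, was at 23.01, 26.5 and 32.4 CPM in young ND and 14.3, 19.4 and 25.3 CPM in old ND. Dnaja1, a farnesylated J-domain protein, was at 173.7, 218.8 and 257.7 CPM in young ND and 119.6, 160.9 and 202.2 CPM in old ND. In each of these 3 genes 4 or 5 of the 6 old ND mice lay below all young ND mice. The estimates were -0.56 for Hsph1 (edgeR adjusted p = 0.118), -0.40 for Dnajb1 (0.0762), -0.40 for Dnaja1 (0.115) and -0.38 for Hspd1 (0.0917). Those of Hspa8 (-0.25), Hspe1 (-0.22), Hsf1 (-0.16) and Hsp90aa1 (-0.11) were smaller, with adjusted p from 0.46 to 0.832. The median over the 9 members was -0.38, and that over all tested genes was 0.007. The 9 hepatocyte markers had a median of -0.25, with 2 of 9 estimates positive and 0 called. Whether the members' shift goes with that of the hepatocyte markers was not tested.

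Within batches the Hspa1b change was -1.10 in batch 1 and -1.51 in batch 2, where neither passed the test alone. Hspa1b stayed called without each mouse in turn (edgeR adjusted p up to 0.0371), while Dnajb1 was also called without old ND replicate 6 and Hspd1 without old HFD replicate 4. Genes of other cells moved with this comparison. Of the 18 immune cell markers 13 were tested and 12 were called higher in old ND, with 13 of 13 estimates positive (median 3.74). Their summed level was 2.48 to 67.4 CPM (median 20.9) in young ND against 56.4 to 1059 CPM (median 156.6) in old ND. The highest of these was old ND replicate 4, whose summed hepatocyte markers were 44541 CPM against a group median of 124530 CPM, and which was the lowest of its group in Hspa8, Hspe1 and Hspd1. Without it the change of Hspa1b was -1.29 and was still called. The sum was 17.4 to 170.9 CPM in young HFD against 65.8 to 594.9 CPM in old HFD. Of these markers Cd74, Clec4f, Vsig4, Csf1r and Lyz2 were counted in every mouse, and Cd3e, Cd8a and Ms4a1 were at 0 in 9, 11 and 12 mice. Of 16 endothelial, stellate and cholangiocyte markers 13 were tested and 8 were called higher, with 13 of 13 estimates positive (median 1.58). Immediate early genes, which respond within minutes to handling or stress, were called higher in 14 of 20 cases, with 18 of 20 estimates positive. Btg2 was at 2.07, Fos at 2.22 and Klf6 at 1.65 on the log2 scale. The summed level of these genes was 384.8 to 799.1 CPM in young ND and 633.7 to 1747 CPM in old ND. The part of these in the change of Hspa1b was not tested.

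**Figure D2:**
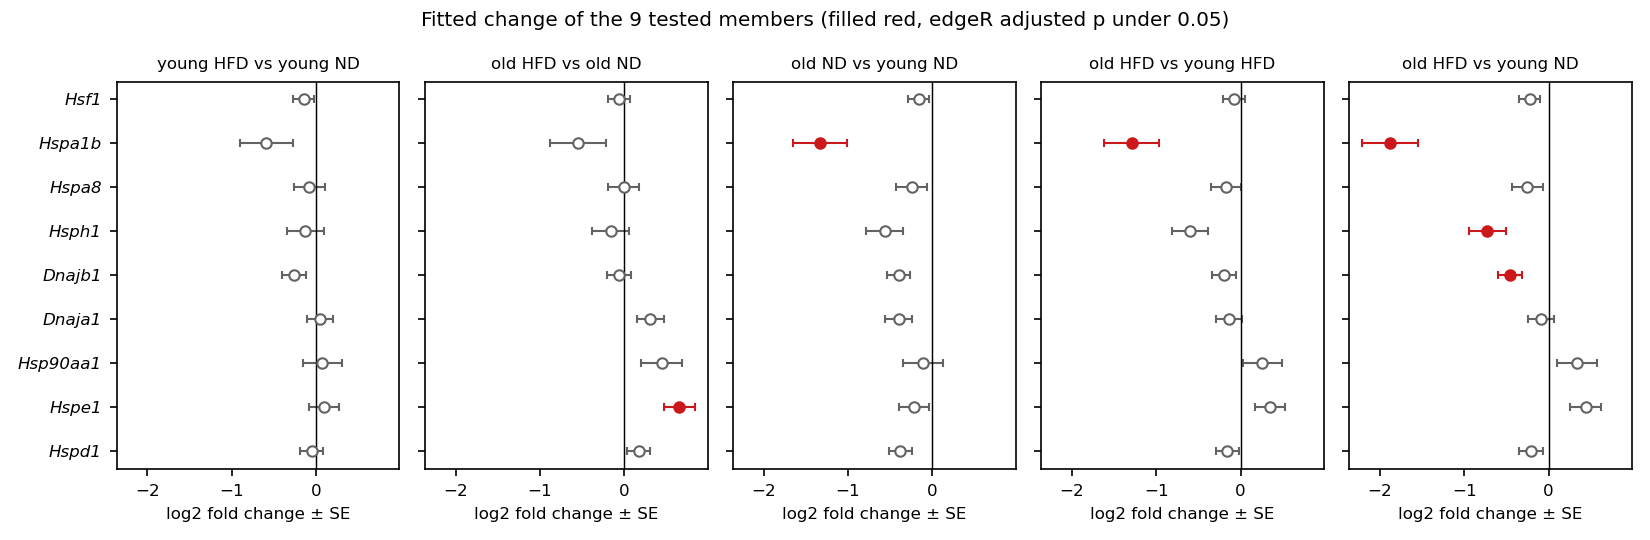
Fitted log2 fold change with its standard error (horizontal axis) of the 9 tested members in 5 comparisons, with filled red points where the edgeR adjusted p was under 0.05. Hspa1b is red in the 3 comparisons of old with young mice (-1.34, -1.29 and -1.88), and Hspe1 in old HFD against old ND (0.65).

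The second age comparison was between the mice on HFD, and Hspa1b was again lower in the old mice. Its lowest, median and highest values were 3.80, 5.81 and 12.6 CPM with young mice, and 1.19, 3.10 and 4.35 CPM with old mice. All but 1 of the old HFD mice lay below every young HFD mouse. Hspa1b fell by 1.29 on the log2 scale (SE 0.33, edgeR adjusted p = 0.0417), to 0.413 times the young HFD mean, and it was 1 of 9 members called beside 2.24% of all tested genes. Hsph1 had a median of 49.5 CPM in young HFD and 41.9 CPM in old HFD, with the highest young HFD mouse at 108.4 CPM, and its estimate was -0.60 (SE 0.22, adjusted p = 0.128). The estimates of the other members were between -0.20 (Dnajb1) and 0.35 (Hspe1), with adjusted p of 0.264 or more. The median over the 9 members was -0.16, against 0.011 over all tested genes.

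Within batches the Hspa1b change was -1.08 and -1.57, neither called alone. The adjusted p rose to at most 0.126 and the call was lost without any 1 of the 6 young HFD mice, of young ND replicates 2, 4, 5 and 6, or of old HFD replicates 2 and 4, and also without a batch term (0.0644) or with only the mice of the groups compared (0.177). Of the tested immune markers 1 of 13 was called higher in this comparison, with 13 of 13 estimates positive and a median of 1.54 on the log2 scale. Of the endothelial, stellate and cholangiocyte markers 0 of 13 were called (median 0.17), and of the immediate early genes 1 of 20, with 20 of 20 estimates positive and a median of 0.74. Their part in the change of Hspa1b was not tested.

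The diet comparisons asked whether HFD changed the chaperones in mice of either age. In young mice none of the 9 tested members was called, beside 3.50% of all tested genes. Hspa1b was the member with the largest estimate, -0.59 (SE 0.31, edgeR adjusted p = 0.281), and the highest young HFD mouse, at 12.6 CPM, was below only the highest young ND mouse. Dnajb1 was at 17.8, 22.5 and 26.7 CPM in young HFD, an estimate of -0.26 (SE 0.14, adjusted p = 0.28). Hspa8, the constitutive HSP70, had medians of 882.1 CPM in young ND and 771.4 CPM in young HFD, where replicate 1 stood high at 1305 CPM. Its estimate was -0.079 and that of Hsf1 was -0.15 (adjusted p = 0.86 and 0.555). Those of Hsph1, Dnaja1, Hsp90aa1, Hspe1 and Hspd1 were from -0.13 to 0.089, with adjusted p of 0.803 or more. Over the 24 fits that each left out 1 mouse, no member was called. By an unadjusted p, 2885 of all tested genes were under 0.05 in this comparison, and none of the members was. DESeq2 also called 0 members.

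In old mice Hspe1, which encodes the HSP10 lid of the mitochondrial chamber, was higher on HFD. It was at 48.7 CPM at the lowest, 69.6 at the median and 86.5 at the highest in old ND. In old HFD it was at 72.5, 97.0 and 268.9 CPM. Of the 6 old HFD mice 4 were above every old ND mouse, and the highest, replicate 2, stood far above the next at 116.9 CPM. Hspe1 rose by 0.65 on the log2 scale, with an SE of 0.18 and an edgeR adjusted p of 0.0494. It was 1 of 9 members called beside 3.01% of all tested genes.

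The gene beside it did not follow to the same extent. Hspd1, the HSP60 chamber itself, was at 202.2, 325.6 and 424.6 CPM in old ND and at 207.3, 414.1 and 549.6 CPM in old HFD, an estimate of 0.17 (SE 0.14, adjusted p = 0.501). Hsp90aa1 was at 156.7, 187.2 and 244.6 CPM in old ND and at 143.4, 223.8 and 670.7 CPM in old HFD. Its highest value belonged to the same replicate 2, with the next at 274.5 CPM, and its estimate of 0.44 (SE 0.24, adjusted p = 0.282) was 0.13 without that mouse. Dnaja1 had an estimate of 0.31 (SE 0.16, adjusted p = 0.247), with 4 of 6 old HFD mice above every old ND mouse. Hspa1b had an estimate of -0.55 (SE 0.33, adjusted p = 0.348), and Hsf1, Hspa8, Hsph1 and Dnajb1 were between -0.16 and -0.006.

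The Hspe1 call was near the threshold. Without old HFD replicate 2 the estimate was 0.37 and the adjusted p was 0.0427. The call was lost, at adjusted p up to 0.123, without any 1 of the 12 young mice or of old ND replicates 1, 2, 4, 5 and 6, and also without a batch term (0.0658), with only the mice of the groups compared (0.369) and on the FPKM values (0.46 on the log2(FPKM + 1) scale, limma adjusted p = 0.137). Within batches it was 0.955 in batch 1, which holds that mouse, and 0.35 in batch 2. The exons of Hspe1 and Hspd1 overlap by 112 bases on opposite strands, and handling of strand is not given in the sources used here.

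Age and diet together gave the widest contrast, old HFD against young ND, where 3 of the 9 members were called, all lower. Beside them 30.2% of all tested genes were called in either direction, with 1755 of 13583 lower. Hspa1b was at 4.97 to 18.9 CPM in young ND and 1.19 to 4.35 CPM in old HFD, groups that did not overlap. It fell by 1.88 on the log2 scale (SE 0.33, edgeR adjusted p = 0.000514), to 0.274 times the young ND mean. Hsph1 fell by 0.73 (SE 0.22, adjusted p = 0.016), with old HFD at 27.1, 41.9 and 57.5 CPM and 5 of 6 mice below every young ND mouse. Dnajb1 fell by 0.46 (SE 0.14, adjusted p = 0.0168), with old HFD at 14.5, 20.1 and 24.0 CPM and 4 of 6 mice below every young ND mouse.

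In the same contrast Hspe1 had a positive estimate of 0.44 (SE 0.18, adjusted p = 0.0658), which was 0.13 without old HFD replicate 2 (adjusted p = 0.33). It was called with RLE factors (0.49, adjusted p = 0.0428), by DESeq2 (0.485, adjusted p = 0.0363) and without old ND replicate 4 or old HFD replicates 1, 3, 4 or 6. Hsp90aa1 was at 0.33 (SE 0.24, adjusted p = 0.29), and at -0.024 without that mouse. Hspa8, Hsf1, Hspd1 and Dnaja1 were from -0.25 to -0.092, none called. Within batches Hspa1b was -1.69 and -2.11, called in each (adjusted p 0.0457 and 0.0391). Hsph1 (-0.76 and -0.70) and Dnajb1 (-0.49 and -0.45) were not called in a batch alone, and Dnajb1 was not called without old HFD replicate 4 (adjusted p = 0.0547) or with only the mice of the groups compared (0.0501). In this contrast 13 of 13 tested immune markers, and 12 of 13 tested endothelial, stellate and cholangiocyte markers, were called higher. Of the immediate early genes 13 of 20 were called higher (median 0.83), and of the clock genes 3 of 16 were called higher and 5 lower. The part of these was not tested. These 5 comparisons share groups, so their values for a member are not independent.

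Whether the response to HFD differed with age was tested directly, as the difference between the HFD effects in old and young mice. None of the 9 members was called, and neither was any of the tested genes (0.00%) by edgeR with the count filter, where 1247 genes had an unadjusted p under 0.05. Without the filter edgeR called 587 of 32336 genes, and DESeq2 called 7 genes, with 0 members among them in each. Hspe1 had the largest estimate, a HFD effect 0.56 higher on the log2 scale in old mice (SE 0.25, unadjusted p = 0.0357, adjusted p = 0.531), which was 0.28 without old HFD replicate 2. Those of the other members were between -0.034 (Hsph1) and 0.37 (Hsp90aa1), with adjusted p of 0.728 or more.

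Hsf1 itself was called in no comparison. Its lowest, median and highest values were 8.15, 11.5 and 13.02 CPM for young ND and 7.23, 10.1 and 13.8 CPM for young HFD. Those for old ND were 9.30, 10.6 and 11.2 CPM, and those for old HFD 7.91, 10.1 and 11.1 CPM, with all 4 groups overlapping. Its highest mouse was 1.90 times its lowest over all 24, where Hspa1b spanned 15.9 times, Hspe1 5.52, Hsp90aa1 4.68, Hsph1 4, Hspa8 2.96, Hspd1 2.72, Dnaja1 2.71 and Dnajb1 2.26 times. The transcript of Hsf1 does not measure the activity of the protein, which is set after translation.

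Ratios within a library do not depend on its scaling, and 2 were tested by exact permutation of mice within batches, two-sided, over 4 comparisons each with adjustment over the 8 tests. The log2 ratio of Hspe1 to Hspd1 counts, the lid against the chamber, averaged -2.38 ± 0.073 (SD, n = 6) for young ND against -2.22 ± 0.14 for old ND. The HFD means were -2.23 ± 0.14 with young mice and -1.79 ± 0.45 with old mice. All 6 old HFD mice, from -2.12 to -1.03, had a ratio above the young ND range of -2.44 to -2.28. The exact permutation test gave a difference of 0.44 for old HFD minus young HFD (p = 0.005, the smallest it can give, adjusted 0.0229) and of 0.43 for old HFD minus old ND (p = 0.0286, adjusted 0.0457). By the same exact test it gave 0.16 for old ND minus young ND (p = 0.00571, adjusted 0.0229) and 0.15 for young HFD minus young ND (p = 0.06, adjusted 0.08). Within batches these were 0.45 and 0.43, 0.62 and 0.30, 0.085 and 0.18, and 0.26 and 0.038. On the FPKM values these differences were 0.23, 0.28, -0.0049 and 0.045, in the same order, with exact permutation adjusted p from 0.0667 to 0.977. Without old HFD replicate 2 the first was 0.29 (exact permutation adjusted p = 0.0229) and the second 0.28 (0.061). The first lost its call without any 1 of the young HFD mice, and the second also without old HFD replicate 4 or any 1 of the old ND mice, where fewer arrangements are possible.

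The log2 ratio of summed Hspa1a and Hspa1b to Hspa8 counts set the inducible against the constitutive HSP70. It averaged -6.38 ± 0.68 (SD, n = 6) for young ND against -7.34 ± 0.38 for old ND, and -6.84 ± 0.47 for young HFD against -7.84 ± 0.51 for old HFD. The old mice were thus lower on either diet, with differences of -0.96 on ND (exact permutation p = 0.02, adjusted p = 0.04) and -0.99 on HFD (p = 0.015, adjusted p = 0.04). The HFD differences were -0.46 in young and -0.50 in old mice, with exact permutation adjusted p of 0.19 and 0.114. Within batches the age differences were -0.60 and -1.24 on ND and -1.09 and -0.90 on HFD. The call on ND was lost without young ND replicates 1 or 2 or any 1 of the old ND mice, where the difference was between -1.039 and -0.79. That on HFD was lost without young HFD replicates 1, 2, 3, 5 or 6 or old HFD replicates 2 or 4, where it was between -1.112 and -0.94.

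**Figure D3:**
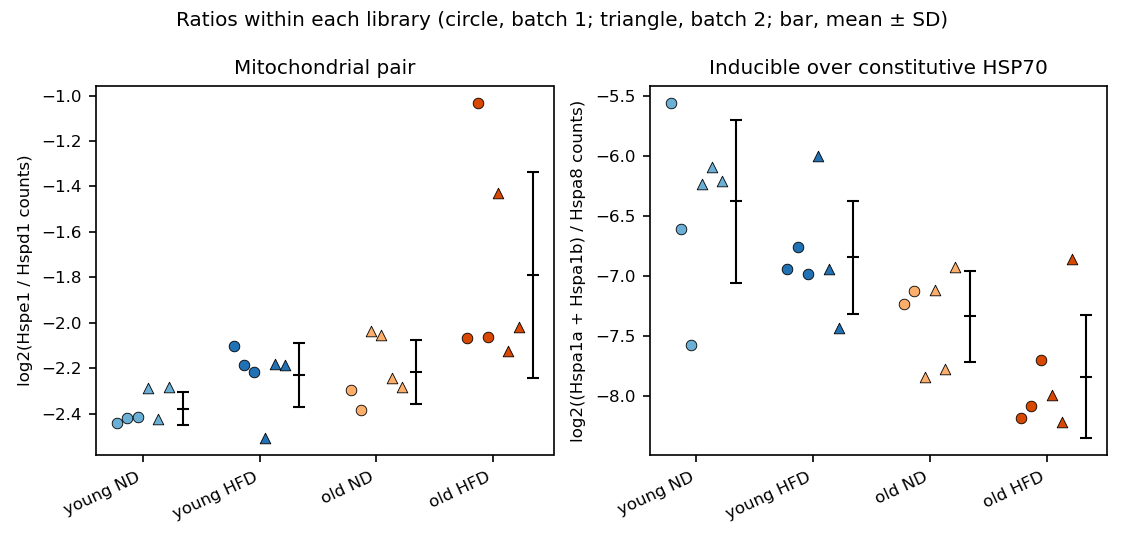
Log2 ratios of counts within each library by group (left, Hspe1 to Hspd1; right, Hspa1a plus Hspa1b to Hspa8), with circles for batch 1, triangles for batch 2 and bars for the mean ± SD of 6 mice. The left ratio was highest in 1 old HFD mouse at -1.03, and the right ratio had means of -6.38, -6.84, -7.34 and -7.84 in the order drawn.

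Across the 24 mice 6 members, Hspa1b, Hspa8, Hsph1, Dnajb1, Dnaja1 and Hspd1, had positive correlations with each other. With batch means removed, log2 CPM of Hspa8 and Hsph1 had Pearson r = 0.85, Dnaja1 and Hspd1 0.83, Hspa1b and Dnajb1 0.76, and Hspa1b and Hsph1 0.73. These are descriptions over 24 mice that share batches, groups and library composition, and within groups and batches these pairs were at 0.86, 0.76, 0.59 and 0.52. Other pairs of the 6 ranged there from 0.319 for Hsph1 with Hspd1 and 0.36 for Hspa1b with Hspd1 to 0.738 for Dnajb1 with Dnaja1. Over all 24 mice Hsp90aa1 and Hspe1 went with each other (r = 0.69) and less with the rest, from -0.23 to 0.485 for Hspe1. That pair fell to r = 0.26 without old HFD replicate 2, and Hsp90aa1 with Hsph1 went from 0.13 to 0.51. Without that mouse Hspe1 had r = 0.615 with Dnaja1 and 0.605 with Hspd1, above its r with Hsp90aa1. With the remaining members Hspe1 was then from -0.031 to 0.388. Hsf1 had r from -0.26 to 0.48 with the other members.

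**Figure D4:**
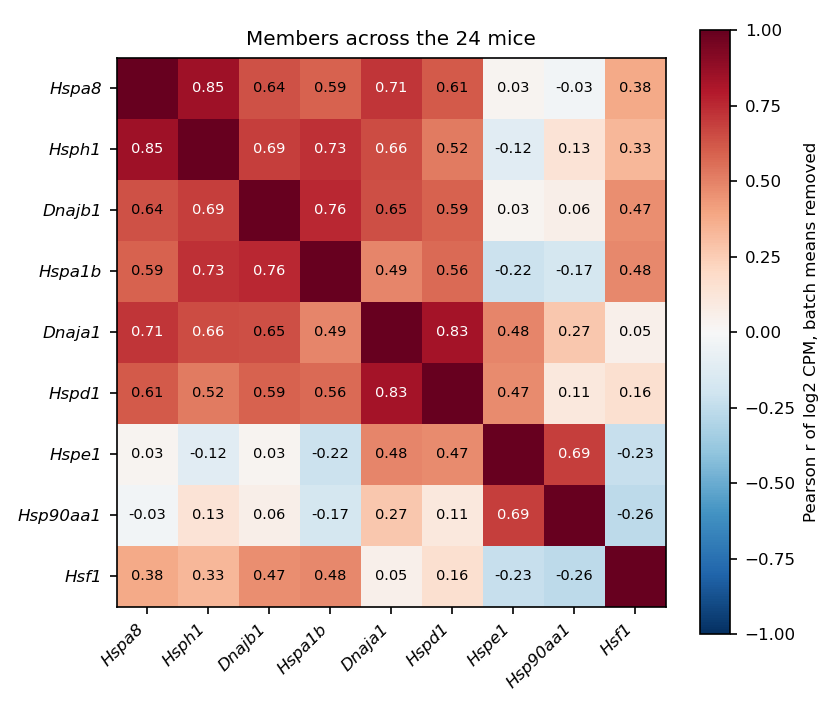
Pearson r of log2 CPM between the 9 tested members over 24 mice with batch means removed (colour from -1 to 1, value printed in each cell). The block from Hspa8 to Hspd1 is positive throughout, from 0.486 to 0.849, and Hspe1 with Hsp90aa1 is at 0.69, or 0.26 without 1 mouse.

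Batch means differed for several members. In young ND, Dnaja1 averaged 252.9 CPM in batch 1 and 184.6 CPM in batch 2, and Hspd1 508 and 387.6 CPM. Hsp90aa1 averaged 267.2 and 187.9 CPM there, and Hsf1 10.3 and 12.3 CPM. The mean of Hspa1b was close, at 11.2 and 10.7 CPM. Batch was a term of each fit.

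The genes whose pattern was most like the members were chosen by the correlation of log2 CPM, with batch means removed, with the mean z-score of the 8 tested members other than Hsf1, over 24 mice and 7341 other genes of at least 10 CPM. They were Fkbp4, an HSP90 co-chaperone of steroid receptors (r = 0.87), Ubfd1 (0.85), Mtfr1 (0.84), Nadk2, the mitochondrial NAD kinase (0.84), Slc25a13 (0.83), Baat, which conjugates bile acids (0.83), Dhrs1 (0.82) and Sod2, the mitochondrial superoxide dismutase (0.82). The most opposite were Unc93b1 (-0.87), Zbtb4 (-0.86), Leprot (-0.84) and P2rx4 (-0.82).

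Other genes of the chaperone network were counted from lists. Between old ND and young ND, where 8.50% of all tested genes were called, 0 of 12 HSP90 and co-chaperone genes, 0 of 20 J-domain and HSP70 co-chaperone genes, 0 of 8 subunits of the CCT chaperonin, 0 of 13 mitochondrial chaperones and proteases and 0 of 15 ER chaperones were called. Their medians were -0.15, -0.11, -0.17, -0.21 and -0.25 on the log2 scale, with negative estimates for 8 of 8 CCT and 13 of 13 mitochondrial genes. A further list of 14 temperature- and stress-responsive genes held both heat-inducible genes and the cold-inducible Rbm3 and Cirbp. Of these 14 genes 6 were higher, led by Fos (2.22), Rbm3 (0.62), an RNA-binding protein, and Hmox1 (1.52), heme oxygenase. Fos, Jun and Atf3, which are 3 of those 6, are also in the immediate early list. Between old HFD and young ND, where 30.2% of all tested genes were called, the counts of the lists are given as a description. HSP90 co-chaperones were lower in 4 of 12 cases and higher in 1, with Ahsa2 at -0.66, Sugt1 at 0.41 and Fkbp4 at -0.38. J-domain and HSP70 co-chaperones were lower in 3 of 20 cases and higher in 2, with Dnaja4 at -1.74, Dnajc8 at 0.37 and Bag3, the nucleotide exchange factor of stressed cells, at -0.46. Mitochondrial chaperones and proteases were lower in 3 of 13 cases and higher in 2, with the protease Lonp1 at -0.53, the HSP90 paralog Trap1 at -0.54 and Dnajc19 at 0.48. ER chaperones were lower in 2 of 15 cases and higher in 1, with Hyou1 at -1.08, Serp1 at -0.50 and Hsp90b1 at 0.55, and of 4 tested small heat shock proteins Hspb6 was lower at -0.76. Of the temperature- and stress-responsive list 7 of 14 were higher, led by Fos (1.77), Tcim (1.21) and Jun (0.71), and of 9 tested heat shock factors and regulators Crebbp (0.65) and Hsf2bp (1.42) were higher. Of the 9 hepatocyte markers 2 were higher and 4 lower, with Hnf4a at -0.73, Cps1 at -0.92 and Apob at -0.74. None of the 8 CCT subunits or the 7 HSP70 and HSP110 relatives was called in any of these comparisons.

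In the other comparisons few genes of these lists were called. Between old ND and young ND (8.50% of all tested genes called), Hsf2bp, named for binding HSF2 and known from meiosis, rose by 2.01. Between old HFD and old ND (3.01%), Dnajc19, a J-domain protein of the mitochondrial import motor, rose by 0.57, Hsbp1, which binds HSF1, rose by 0.41, and Dnaja4 fell by 1.90. Between young HFD and young ND (3.50%) it was Tcim at 1.16, among the temperature- and stress-responsive genes. Between old HFD and young HFD (2.24%), Hsf2bp at 2.18 and Crebbp at 0.77 were higher in the list of heat shock factors and regulators. Clock genes, whose level depends on the time of death, were called in 4 of 16 cases between young HFD and young ND, beside 3.50% of all tested genes. All 4 were lower, with Nfil3 at -1.32, Cry1 at -1.30 and Clock at -0.66, while 11 of the 16 estimates were positive with a median of 0.53, and the time of collection is not given in the sources used here.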

How the data were processed

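Hepatocyte RNA-seq from 24 mice was used, with groups taken from the sample labels. One deposited table holds raw whole-number counts, for which the submitters' processing notes name STAR 2.7.3a, HTSeq 0.11.2 and the mm10 build. The other deposited table holds FPKM values, which the authors obtained with CuffLinks and which, by the table's name, had passed through ComBat. Neither table had a column without a sample (0). Gene models are GENCODE on GRCm38, the mm10 build, and start sites and promoters are RefSeq on GRCm38; 7 of the 10 members were matched there.

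Counts were tested with edgeR 4.0.16 (R 4.3.3): TMM, filterByExpr by group (minimum count 10), group and batch as terms fitted to all 24 mice at once, quasi-likelihood F tests, and Benjamini-Hochberg adjustment over 13583 genes within each comparison, at 0.05. Depth was 9200332 to 22185069 counts per mouse. Counts come from amplified reads, so counting error is a lower limit. Ratios of counts were compared by exact permutation within batches. Both tests were checked on simulated data. No 2 libraries of a group agreed within counting noise (chi-square per degree of freedom of at least 15.9).

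The members and the gene lists were chosen with earlier results of these data known, and the lists were written by hand. All members are named. Of each list at most 3 called genes per comparison are named, by smallest adjusted p, and of the lists not about chaperones mostly counts are given. Alternatives were DESeq2 1.42.0, RLE factors, no count filter, no batch term, the replicate number in place of batch, only the groups compared, both inducible HSP70 copies summed, limma 3.58.1 on log2(FPKM + 1) or log2(FPKM + 0.1), each batch alone, and 1 mouse left out at a time. Ratio tests and plots were made in Python 3.11.15 (with scipy 1.17.1, matplotlib 3.10.9, pandas 2.3.3 and numpy 2.4.6).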

Additional observations from a re-analysis of the deposited data

Results flagged for a closer look

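Of the members' values 4 stood apart from the other 5 mice of their group by Dixon's test at the 95% level, of 44 sets of 6 mice examined, and chance alone sets apart about 1 in 20. Hspe1 in old HFD replicate 2 was at 8.07 log2 CPM, with the next mouse at 6.87, and its effect on the Hspe1 comparisons is given with them. Hspa8 in young HFD replicate 1 was at 10.35 log2 CPM, with the next at 9.69, and the same mouse was the highest of its group in Hsph1 at 108.4 CPM. Hsf1 in young ND replicate 3 was at 3.05 log2 CPM, below the next at 3.47, and that mouse also had the lowest Hspa1b of its group at 4.97 CPM. The log2 ratio of Hspe1 to Hspd1 counts in young HFD replicate 4 was -2.51, below the next at -2.22, and without that mouse the ratio was 0.20 higher in young HFD than in young ND (exact permutation adjusted p = 0.04).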

How the results depend on the processing

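Of 567 member fold changes under alternatives other than leaving out a mouse, 516 kept their side of the threshold and, where not called, moved by under 1 SE, sign changes of estimates near 0 included, and of 1296 with 1 mouse left out 1253 did. For old HFD against old ND, 0 members were called without a batch term, with only the mice of the groups compared, on either FPKM scale and in each batch alone, and 0 to 1 without 1 mouse. For old ND against young ND the count was 2 with no count filter, 3 with only the mice of the groups compared, 0 in either batch alone, and 1 to 2 without 1 mouse. For old HFD against young HFD it was 2 with no count filter, 0 without a batch term, with only the mice of the groups compared and in each batch alone, and 0 to 1 without 1 mouse. For old HFD against young ND it was 1 in each batch alone, 2 with only the mice of the groups compared, 4 with RLE factors and by DESeq2 (adding Hspe1, which was higher), and 3 to 4 without 1 mouse. Each batch alone has fewer mice; the cause of the other changes was not tested. Depth limits Hspa1a, which had at most 15 counts in a library and was not tested.

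With FPKM in place of counts the log2 ratio of Hspe1 to Hspd1 differed by 0.282, -0.0049 and 0.232 for old HFD against old ND, old ND against young ND, and old HFD against young HFD, none called. Over the fits without 1 mouse this ratio differed by 0.121 to 0.203 for young HFD against young ND, 0.276 to 0.494 for old HFD against old ND and 0.290 to 0.508 for old HFD against young HFD. The ratio of Hspa1a plus Hspa1b to Hspa8 differed by -0.703 to -0.300, -1.195 to -0.792, -1.189 to -0.825 and -0.696 to -0.419 for young HFD against young ND, old ND against young ND, old HFD against young HFD, and old HFD against old ND. Hsf1 turned to 0.023 in batch 2 alone (young HFD against young ND) and to 0.0029 in batch 1 alone (old ND against young ND). Hsp90aa1 turned to -0.097 (old HFD against young HFD, up to 0.374 without another mouse) and -0.024 (old HFD against young ND, up to 0.465) without old HFD replicate 2. The counts of all tested genes called ranged from 146 to 998, 84 to 823, 586 to 1592, 40 to 813 and 3314 to 4722 without 1 mouse, and from 9 to 2302, 15 to 1108, 2 to 2053, 0 to 1235 and 617 to 5013 under the others, in the order young HFD against young ND, old HFD against old ND, old ND against young ND, old HFD against young HFD, and old HFD against young ND. For the interaction the counts were 0 to 1 without 1 mouse and 0 to 587 under the others, the highest with no count filter.

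Deviations from the group mean of same-numbered mice had r over 0.1 in 21 of 36 pairs (from -0.32 to 0.551). Of 24 mice 6 correlated best, outside their group, with a mouse of their own number. Same-numbered mice also shared a batch, except old ND replicate 3. With batch means removed r was from -0.495 to 0.405. The number was not taken as a pairing in the main fits. With a replicate block and no batch term, 3 members were called for old ND against young ND (Hspa1b, Hsph1 and Hspd1) and 0 for old HFD against young HFD, with 1350 and 131 of all tested genes. With the replicate block as sign flips, the Hspe1 to Hspd1 differences of 0.427, 0.161 and 0.441 and the HSP70 differences of -0.956 and -0.993 had exact permutation adjusted p of 0.1.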
